A study of Homo sapiens with 9 samples.

Results

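MHC class I molecules display peptides from inside the cell to CD8 T cells and are recognised by receptors of natural killer cells. A heavy chain pairs with the light chain B2M, and peptides made by the proteasome are pumped into the endoplasmic reticulum by the transporter TAP1/TAP2 and loaded with the help of tapasin (TAPBP). Neural tissue carries little class I at rest, and interferon, NF-κB and the co-activator NLRC5 are its best known inducers. The 9 genes described here were taken by name from the deposited tables, out of 31589 genes present in any of the 3 tables. They are the heavy chain genes HLA-B, HLA-C, HLA-E and HLA-F, the light chain gene B2M, the transporter genes TAP1 and TAP2, TAPBP, and NLRC5. All 9 were present in all 3 tables.

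The study asked how valproic acid (VPA), an anti-seizure drug that also inhibits histone deacetylases, acts on a human model of the developing spinal cord, and whether the mTOR inhibitor Rapamycin changes that action. Whole spinal cord organoids (SCOs) of the human induced pluripotent stem cell line WTC, labelled as wild type, were profiled by bulk RNA sequencing in 3 conditions with 3 libraries each. The conditions were vehicle (titled FGF), VPA and VPA+Rapamycin, all for 96 h according to the labels, and there was no library exposed to Rapamycin alone. The study's methods describe clones of WTC that carry a reporter at SOX10 and pool several SCOs of a clone in each library, and the labels do not tie a replicate number to a clone. The p-values therefore measure the spread among these pools, all from the same parent line. Labels of same-numbered libraries share a prefix across the 3 conditions, and these libraries were not treated as pairs in the main tests.

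Each library held between 15290294 and 17417338 counts in its table. Replicates of a condition differed from each other by more than sampling noise, and none looked like a library deposited again. Spinal cord progenitor markers, which include SOX2, PAX6 and HOX genes, were all present. They summed to between 1786 and 1998 CPM (counts per 1000000 of the library) in vehicle, 2108 and 2300 CPM with VPA, and 1857 and 2037 CPM with VPA+Rapamycin. Every VPA library thus lay above every vehicle library, as it did for the share of mitochondrial reads (5.28% to 6.73% in vehicle, 6.79% to 7.20% with VPA and 5.14% to 7.41% with VPA+Rapamycin), and the part of either in the class I results was not tested. Leukocytes carry much class I, and only 5 of the 10 leukocyte markers listed were present in all 3 tables. Their summed level was between 0.710 and 1.86 CPM, and the ranges of the 3 conditions overlapped. CD68 was at 0 in 6 of the 9 libraries and reached at most 3 counts. AIF1, CSF1R and LAPTM5 were at 0 in 1, 2 and 1 libraries and reached 5, 6 and 24 counts, and CD14 had between 3 and 14 counts. In bulk RNA, a change in the number of cells of a type and a change in RNA per cell cannot be told apart.

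On GRCh38, 7 of the 9 genes lie in the MHC on chromosome 6. In the coordinates of the tables HLA-F spans chr6:29722775-29738528 on the plus strand and HLA-E spans chr6:30489467-30494205 on the plus strand. HLA-C spans chr6:31268749-31272130 on the minus strand, and the annotated HLA-B spans chr6:31269491-31357188 on the same strand. TAP2 (chr6:32821833-32838780), TAP1 (chr6:32845209-32853978) and TAPBP (chr6:33299694-33314387) follow on the minus strand of the MHC. Outside the MHC, B2M spans chr15:44711487-44718877 and NLRC5 chr16:56989485-57083531, both on the plus strand. All 9 are protein-coding genes, and reads were counted over their exons.

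Promoter sequence was held by the RefSeq table for 7 of the 9 genes. Class I promoters are classically described as carrying an interferon regulatory factor element, an NF-κB element and an X-Y module that NLRC5 acts through. The interferon regulatory factor element was searched as AANNGAAA on both strands in the 250 bases before each RefSeq start, and the letters were chosen after the sequences had been seen. The 30 bases around it are shown because it was found before a RefSeq start of all 7 of these genes, whichever way their level moved. Each is written 5′ to 3′ on the gene's own strand (RefSeq, GRCh38.p14), and the capitals mark AANNGAAA or its reverse complement.
HLA-B, chr6:31357316-31357345, minus: actcccctgagTTTCACTTcttctcccaac
HLA-C, chr6:31272225-31272254, minus: actcccctgagTTTCACTTctcccaacctg
HLA-F, chr6:29723267-29723296, plus: tctccccagagTTTCTCTTtctctcccaac
B2M, chr15:44711367-44711396, plus: ctctaagaAAAGGAAACTGAAAacgggaaa
TAP1, chr6:32853817-32853846, minus: gcggccgcTTTCGATTTCGCTTtcccctaa
TAP2, chr6:32838780-32838809, minus: ggctggggAAGCGAAAGCGAAAgctgcccg
TAPBP, chr6:33314079-33314108, minus: ccctttggaggaAAGTGAAAGTGAAAggag

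HLA-B, HLA-C and HLA-F held the element singly, and B2M, TAP1, TAP2 and TAPBP held 2 overlapping copies. In HLA-B it lay 155 to 148 bases before the start, in HLA-C 151 to 144 bases and in HLA-F 156 to 149 bases. In TAPBP the copies lay much closer, from 18 to 5 bases before the start. TAP1 has another RefSeq start, and the 250 bases before it (chr6:32852762-32853011) held no match to any of the elements searched here. For HLA-B, HLA-F, TAPBP and the TAP1 start shown, all 250 bases overlapped annotated exons. Of all 35116 promoters in the table, 20.3% held AANNGAAA on either strand. An NF-κB element searched as GGGANTNNC was found in 5 of the 7 genes (HLA-B, HLA-C, B2M, TAP1 and TAPBP) and in 13.2% of all promoters. An X2-type element searched as TGACGC was found in HLA-B, HLA-C and TAP2 and in 7.67% of all promoters, and the Y-box CCAAT in 5 of the 7 genes and in 32.0% of all promoters. The 250 bases of HLA-B and HLA-C were 89.0% identical when aligned, and those of HLA-B and HLA-F 79.8%. These matches describe letters and not binding.

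Exposure to VPA raised the RNA of the class I heavy chains, of the light chain B2M and of the transporter subunit TAP1, while TAPBP fell. Of the 9 genes, 7 were higher and 1 lower in VPA than in vehicle SCOs at an adjusted p of at most 0.05 in edgeR's quasi-likelihood test. Among all 17360 genes tested, 16.4% were called higher and 15.7% lower. The libraries of the 2 conditions did not overlap for any of the 9 genes, with 8 higher and 1 lower in VPA, while 25.0% of all genes tested were higher and 22.4% lower without overlap. The median log2 fold change of the 9 genes was 1.64, and that of all genes tested was -0.00298. HLA-F and NLRC5 had few reads in vehicle and passed the filter on low counts through their VPA libraries, so these counts lean on them. Of the other 7 genes, 5 were called higher, TAPBP was called lower and TAP2 was not called.

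**Figure D1:**
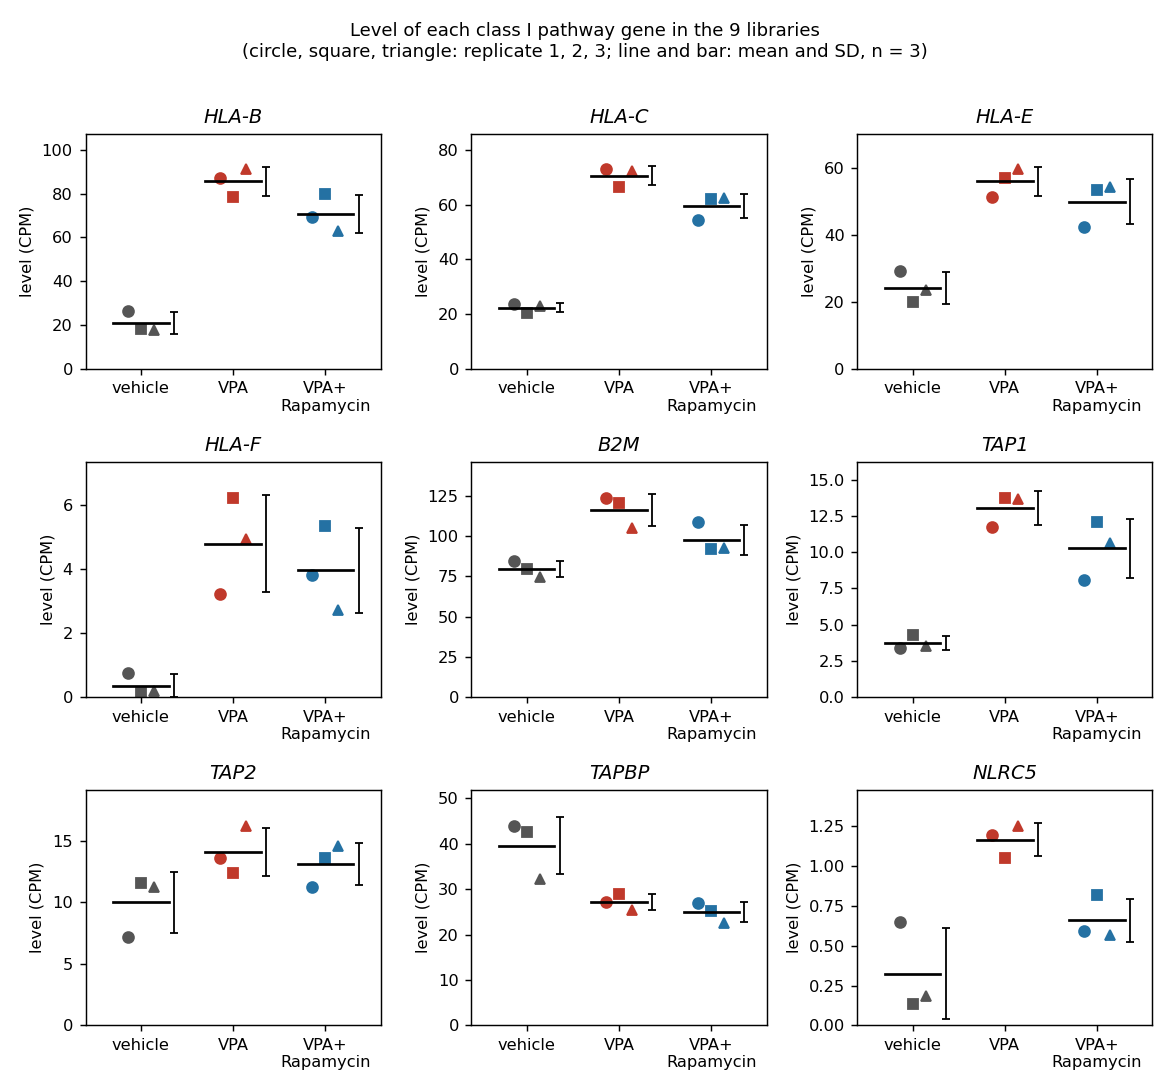
Level of each of the 9 genes in CPM (TMM-scaled; y axis from 0, a scale for each gene) in the 3 vehicle, 3 VPA and 3 VPA+Rapamycin libraries; symbols mark replicates, lines the mean and bars the SD (n = 3). The VPA libraries of HLA-B sit between 78.4 and 91.1 CPM, above the vehicle libraries between 17.9 and 26.6 CPM, and those of TAPBP lie below their vehicle libraries.

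HLA-B, a classical heavy chain that presents peptides to CD8 T cells, had the largest estimate among HLA-B, HLA-C and HLA-E. Its levels were 26.6, 18.0 and 17.9 CPM in the vehicle libraries, 87.3, 78.4 and 91.1 CPM with VPA, and 69.3, 79.8 and 62.8 CPM with VPA+Rapamycin. Every exposed library lay far above every vehicle library, and the VPA and VPA+Rapamycin libraries overlapped. The log2 fold change against vehicle was 2.03 ± 0.16 (SE, adjusted p = 1.65e-05, edgeR) with VPA, a 4.08-fold higher level, and 1.75 ± 0.17 (adjusted p = 0.000243) with VPA+Rapamycin.

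HLA-C, the classical heavy chain that is also the main class I ligand of killer immunoglobulin-like receptors, was at levels near those of HLA-B in vehicle. They were 23.7, 20.5 and 22.9 CPM in vehicle, 72.8, 66.6 and 72.1 CPM with VPA, and 54.4, 62.0 and 62.3 CPM with VPA+Rapamycin. None of the 3 conditions overlapped another. The log2 fold change was 1.64 ± 0.12 (adjusted p = 9.42e-06, edgeR) with VPA and 1.40 ± 0.12 (adjusted p = 0.000177) with VPA+Rapamycin, each against vehicle.

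HLA-E, a non-classical heavy chain that presents leader peptides of other class I chains to the NKG2A receptor of natural killer cells, had a smaller estimate. It was at 29.3, 19.9 and 23.5 CPM in vehicle, 51.3, 57.2 and 59.7 CPM with VPA, and 42.5, 53.4 and 54.3 CPM with VPA+Rapamycin. Exposed libraries again lay above all vehicle libraries and overlapped each other. The log2 fold change against vehicle was 1.20 ± 0.15 (adjusted p = 0.000235, edgeR) with VPA and 1.04 ± 0.16 (adjusted p = 0.00235) with VPA+Rapamycin.

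HLA-F, a non-classical heavy chain often found as an open form without peptide, was close to absent in vehicle SCOs, with 13, 2 and 3 reads. It had 54, 101 and 87 reads with VPA and 64, 92 and 43 reads with VPA+Rapamycin. The conditions did not overlap vehicle, and in 2 of the 3 vehicle libraries the gene was at or under 3 reads. The fitted log2 fold change was 3.66 ± 0.53 (adjusted p = 0.000573, edgeR) with VPA and 3.39 ± 0.55 (adjusted p = 0.00285) with VPA+Rapamycin. Without vehicle replicate 1 they were 4.84 and 4.56 on the log2 scale. Genes on the opposite strand share exonic bases with HLA-F, among them HLA-F-AS1 with a mean of 6.50 reads against 43.3 for HLA-F in the vehicle and VPA libraries.

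B2M, the light chain shared by all class I molecules, had a smaller estimate than any heavy chain gene. Its levels were 84.4, 79.4 and 74.6 CPM in vehicle, 124, 120 and 105 CPM with VPA, and 109, 91.8 and 92.5 CPM with VPA+Rapamycin. The VPA libraries lay above vehicle with a log2 fold change of 0.54 ± 0.11 (adjusted p = 0.00332, edgeR), a 1.45-fold higher level. With VPA+Rapamycin all 3 libraries also lay above vehicle, and the log2 difference of 0.29 ± 0.11 did not pass the threshold (adjusted p = 0.0962).

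TAP1 and TAP2, which together form the peptide transporter, had different estimates. TAP1 was at 3.37, 4.28 and 3.53 CPM in vehicle, 11.7, 13.8 and 13.7 CPM with VPA, and 8.09, 12.1 and 10.7 CPM with VPA+Rapamycin. Its log2 fold change against vehicle was 1.80 ± 0.20 (adjusted p = 0.000114, edgeR) with VPA and 1.45 ± 0.23 (adjusted p = 0.00229) with VPA+Rapamycin, with no overlap in either case. TAP2 was at 7.16, 11.6 and 11.2 CPM in vehicle, 13.6, 12.4 and 16.2 CPM with VPA, and 11.2, 13.6 and 14.6 CPM with VPA+Rapamycin. The VPA libraries of TAP2 lay just above vehicle, the log2 difference was 0.49 ± 0.21, and it did not pass the threshold (adjusted p = 0.10, edgeR). Without vehicle replicate 3 TAP2 passed it (log2 fold change 0.59, adjusted p = 0.0385). Per kilobase, TAP2 was higher than TAP1 in every vehicle library, at 1.56 ± 0.384 against 0.776 ± 0.101 CPM (SD, n = 3). With VPA the order of their means turned, at 2.20 ± 0.303 for TAP2 and 2.72 ± 0.243 CPM per kilobase for TAP1, with overlapping libraries. TAP2 shares 32.3% of its exonic bases with AL669918.1, an annotated gene on the same strand, and how reads in them were counted is not given in the sources used here.

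TAPBP (tapasin), which holds empty class I molecules at the transporter and edits their peptides, was the member that fell. It was at 43.9, 42.6 and 32.3 CPM in vehicle, 27.2, 29.0 and 25.5 CPM with VPA, and 26.9, 25.3 and 22.6 CPM with VPA+Rapamycin. Every exposed library lay below every vehicle library. The log2 fold change was -0.55 ± 0.14 (adjusted p = 0.0122, edgeR) with VPA and -0.68 ± 0.15 (adjusted p = 0.0112) with VPA+Rapamycin. The call in VPA was lost without vehicle replicate 2 (adjusted p = 0.0576), without VPA replicate 1 (adjusted p = 0.0555) or without VPA replicate 3 (adjusted p = 0.0643). That in VPA+Rapamycin was lost without vehicle replicate 2 (adjusted p = 0.0515) or without VPA+Rapamycin replicate 3 (adjusted p = 0.0596).

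NLRC5, the co-activator of class I promoters, was the least abundant of the 9 genes. It had 11, 2 and 3 reads in vehicle, 20, 17 and 22 reads with VPA, and 10, 14 and 9 reads with VPA+Rapamycin. VPA libraries did not overlap either of the other conditions, and the VPA+Rapamycin libraries overlapped vehicle through vehicle replicate 1. The log2 fold change with VPA was 1.80 ± 0.59 (adjusted p = 0.0376, edgeR). Of the 6 libraries of that comparison, the call held only without vehicle replicate 1 (log2 fold change 2.80, adjusted p = 0.00720), and the adjusted p lay between 0.0814 and 0.131 without any of the others. NLRC5 was below the filter in the comparison of VPA+Rapamycin with vehicle.

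When Rapamycin was added to VPA, the estimates of the 9 genes lay between 57.1% (NLRC5) and 93.5% (TAP2) of their level in VPA. None of the 9 was called in VPA+Rapamycin against VPA by edgeR, against 3.01% of the 17317 genes tested called higher and 3.73% called lower. DESeq2 called none of the 8 genes for which it gave an adjusted p, NLRC5 having none. All 9 estimates were below 0, with a median log2 fold change of -0.25 beside 0.00391 for all genes tested. At an unadjusted p under 0.05 there were 3 genes, HLA-B, HLA-C and B2M. Their log2 differences were -0.27 ± 0.09 (adjusted p = 0.0806, edgeR), -0.24 ± 0.08 (adjusted p = 0.0915) and -0.25 ± 0.09 (adjusted p = 0.0902). HLA-C and NLRC5 were lower in VPA+Rapamycin without overlap, which held for 13.5% of all genes tested. The log2 difference of NLRC5 was -0.81 ± 0.46 (adjusted p = 0.328). HLA-E, HLA-F, TAP1, TAP2 and TAPBP had log2 differences between -0.34 and -0.10, with adjusted p between 0.240 and 0.765. Without VPA+Rapamycin replicate 2, HLA-B passed the threshold (log2 fold change -0.37, adjusted p = 0.0169), and without VPA+Rapamycin replicate 1, B2M did (-0.33, adjusted p = 0.0287).

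Against vehicle, VPA+Rapamycin SCOs had 5 of the 8 genes tested called higher (HLA-B, HLA-C, HLA-E, HLA-F and TAP1) and TAPBP called lower. Of all 17383 genes tested, 9.81% were called higher and 9.22% lower. Libraries did not overlap for 6 genes that were higher and 1 that was lower, beside 20.0% and 18.3% of all genes tested. The median log2 fold change of the 8 genes was 1.22, and that of all genes tested was -0.000873. This comparison shares its vehicle libraries with that of VPA, so the 2 sets of values are not independent.

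**Figure D2:**
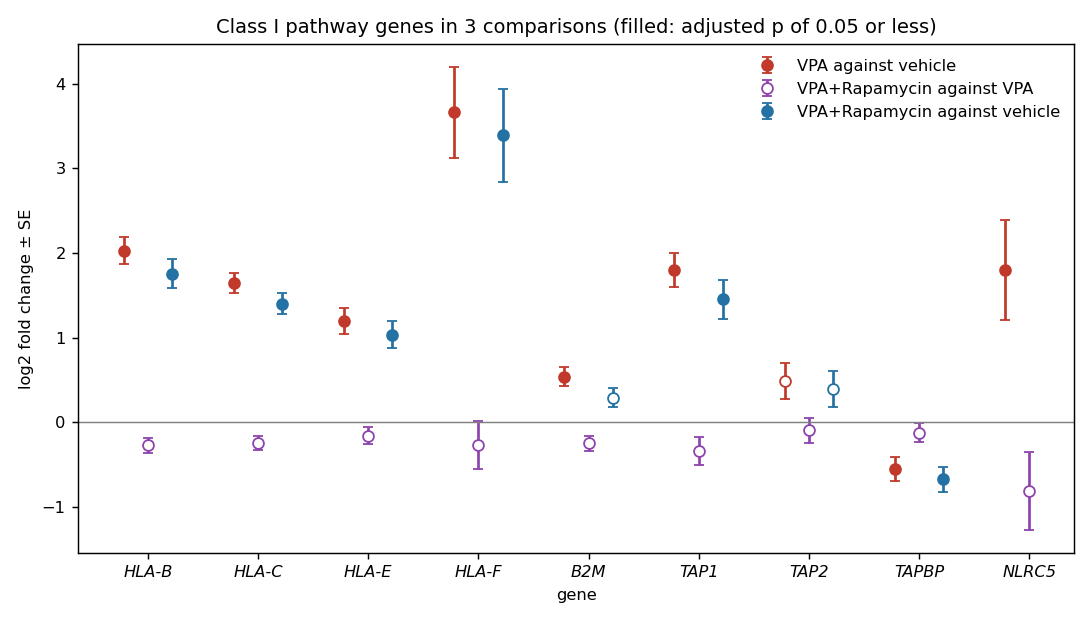
Log2 fold change with its standard error (edgeR) of the 9 genes in the 3 comparisons; filled points have an adjusted p of at most 0.05. HLA-B, HLA-C, HLA-E, HLA-F and TAP1 are filled above 0 against vehicle in both exposed conditions, TAPBP is filled below 0, and every point of VPA+Rapamycin against VPA is open and below 0; NLRC5 was below the filter in VPA+Rapamycin against vehicle.

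Heavy chain genes are near-identical copies in places, and reads can be split among them. In the longest coding transcripts of the GENCODE 29 annotation, 2.20% of the 50-base windows of HLA-B and 3.72% of those of HLA-C occurred in another of HLA-B, HLA-C, HLA-E and HLA-F. For HLA-E the share was 1.41% and for HLA-F 1.51%. The alleles of WTC differ from the reference and were not examined, and how multi-mapping reads were counted is not given in the sources used here. HLA-B and HLA-C also share 35 exonic bases, and HLA-B shares 542 with AL671883.2 on the opposite strand. The summed reads of HLA-B, HLA-C, HLA-E and HLA-F do not depend on such a split among the 4 genes. They numbered 1359, 889 and 1042 in vehicle, 3594, 3378 and 4009 with VPA, and 2859, 3444 and 2890 with VPA+Rapamycin. The sum was higher than in vehicle by a log2 fold change of 1.67 ± 0.13 (adjusted p = 1.38e-05, edgeR) with VPA and 1.44 ± 0.13 (adjusted p = 0.000199) with VPA+Rapamycin. VPA+Rapamycin against VPA gave -0.23 ± 0.08 (adjusted p = 0.0780). That difference passed the threshold with DESeq2 (-0.23, adjusted p = 0.0417), without a filter on low counts (-0.24, adjusted p = 0.0403) and without VPA+Rapamycin replicate 2 (-0.30, adjusted p = 0.0200).

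The make-up of the heavy chain reads differed between vehicle and exposed libraries. HLA-B took 33.1%, 30.7% and 27.7% of the summed reads in vehicle, 40.7%, 37.6% and 40.0% with VPA, and 40.8%, 39.8% and 34.5% with VPA+Rapamycin. HLA-E took 36.4%, 34.0% and 36.5% in vehicle, 23.9%, 27.4% and 26.2% with VPA, and 25.0%, 26.6% and 29.8% with VPA+Rapamycin. So HLA-B held a larger and HLA-E a smaller share in every exposed library than in any vehicle library, as HLA-F did in the direction of HLA-B (mean 0.490% in vehicle, 2.22% with VPA and 2.13% with VPA+Rapamycin). HLA-C stayed between 29.5% and 35.5% in all 9 libraries. The exact two-sided permutation p was 0.1 for HLA-B, HLA-E and HLA-F in both comparisons with vehicle, the smallest that 3 libraries against 3 can give, and 0.2 when adjusted over the 12 shares tested. Between VPA and VPA+Rapamycin the exact p of the 4 shares lay between 0.5 and 1.

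**Figure D3:**
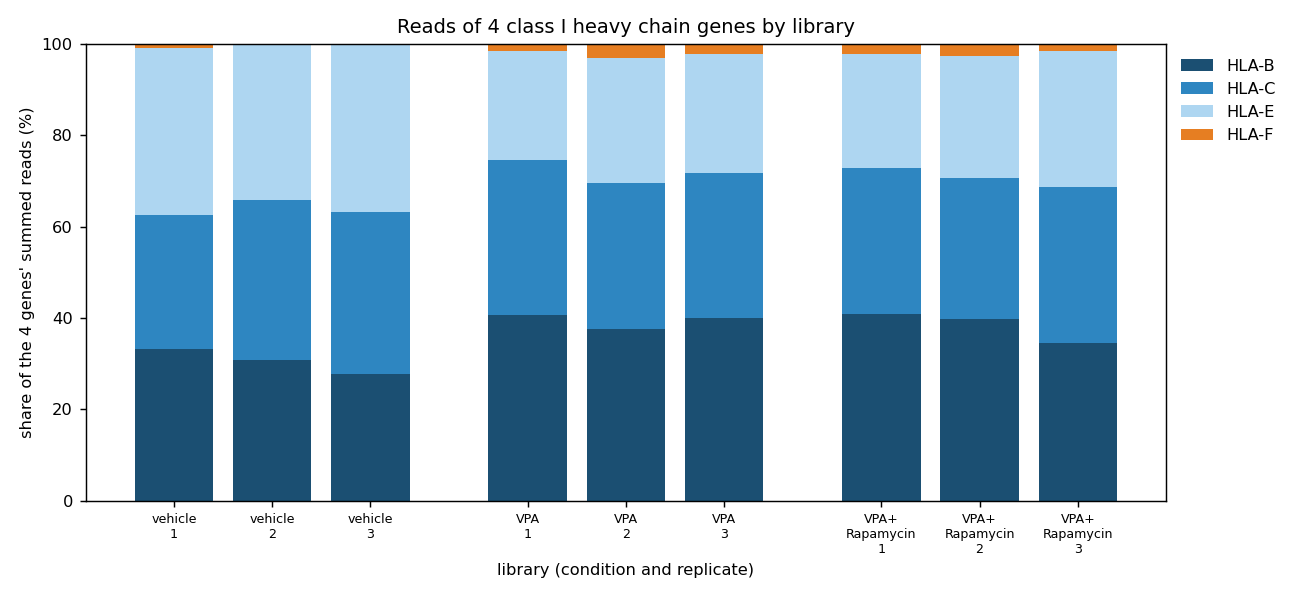
Share of each of HLA-B, HLA-C, HLA-E and HLA-F in their summed reads (y axis, percent) in each of the 9 libraries (x axis). The HLA-E part shrinks from between 34.0% and 36.5% in vehicle to between 23.9% and 29.8% in the exposed libraries, while the HLA-B part grows.

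Levels between genes were compared as CPM per kilobase of the union of annotated exons (6079 bases for B2M and 2507 for HLA-C). Their order, and the size of the heavy chain ratio to B2M given below, therefore depend on the annotation. In CPM not divided by length, B2M lay above HLA-B and HLA-C in every VPA library. In vehicle SCOs B2M stood first with 13.1 ± 0.805 (SD, n = 3), above HLA-C, HLA-E, TAPBP and HLA-B at 8.93, 8.15, 7.83 and 6.83, whose neighbours in this order overlapped. TAP2 and TAP1 followed without overlap, and HLA-F and NLRC5 were last at 0.0834 and 0.0261 with overlapping libraries. With VPA, HLA-C and HLA-B led at 28.1 each and lay above B2M and HLA-E at 19.1 and 18.8. TAPBP fell to the fifth place at 5.38, ahead of TAP1, TAP2, HLA-F and NLRC5. With VPA+Rapamycin the order was led by HLA-C and HLA-B at 23.8 and 23.2, then HLA-E and B2M at 16.8 and 16.1. The ratio of the summed heavy chains to B2M per kilobase was 2.03, 1.59 and 1.87 in vehicle, 3.71, 3.68 and 4.63 with VPA, and 3.34, 4.64 and 4.23 with VPA+Rapamycin. The ratio was higher in every exposed library than in any vehicle library (exact two-sided permutation p = 0.1 for each condition against vehicle, and 0.9 between them).

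The genes around the class I pathway did not all move with it. Of 5 immunoproteasome and activator genes, 4 were tested with VPA. Of these only PSMB9, the interferon-inducible catalytic subunit, was called higher, beside 16.4% of all genes. It had 4, 5 and 2 reads in vehicle, 26, 44 and 32 with VPA, and 6, 16 and 8 with VPA+Rapamycin. VPA libraries of PSMB9 lay above all others, with log2 fold changes of 3.10 ± 0.52 (adjusted p = 0.00125, edgeR) for VPA against vehicle and -1.74 ± 0.46 (adjusted p = 0.0277) for VPA+Rapamycin against VPA. It was below the filter in VPA+Rapamycin against vehicle, and it passed the filter in the others through its VPA libraries. PSMB8 showed estimates of 0.78 (adjusted p = 0.0785) and -0.84 (adjusted p = 0.119) in these comparisons. The constitutive subunits PSMB5, PSMB6 and PSMB7 were not called in any comparison. Of 4 immunoproteasome and activator genes tested in VPA+Rapamycin against VPA, PSMB9 was the 1 called lower, beside 3.73% of all genes. This PSMB9 call was lost without VPA replicate 2 or 3 or without VPA+Rapamycin replicate 1 or 3 (adjusted p between 0.0639 and 0.163, edgeR). It was also lost when the 9 libraries shared a single fit (0.124).

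PSMB9 and TAP1 are neighbours that are transcribed in opposite directions, with 487 bases between their nearest RefSeq starts on chromosome 6. After the values had been seen, PSMB9 reads were set against TAP1 reads. There were 7.02, 7.69 and 3.51 PSMB9 reads per 100 TAP1 reads in vehicle, 13.3, 19.7 and 13.3 with VPA, and 4.41, 7.73 and 4.73 with VPA+Rapamycin. The ratio was highest in the 3 VPA libraries, while the VPA+Rapamycin and vehicle libraries overlapped. The PSMB9 reads behind the ratio are few, and since the ratio was chosen after its values were seen and PSMB9 passed the filter through its VPA libraries, no test is given.

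Of 6 peptide loading and trimming genes, all tested with VPA, 2 were called higher and 2 lower, beside 16.4% and 15.7% of all genes. The chaperone calreticulin (CALR) and the disulphide isomerase PDIA3, both of the loading complex, each rose by 0.30 on the log2 scale (adjusted p = 0.0296 and 0.0253, edgeR). ERAP1, which trims peptides in the endoplasmic reticulum, fell by 0.32 on the log2 scale (adjusted p = 0.0340). TAPBPL, a second peptide editor related to tapasin, had 27, 18 and 37 reads in vehicle and 6, 4 and 16 with VPA, and its log2 fold change was -1.73 (adjusted p = 0.0294). With VPA+Rapamycin ERAP1 was the member called against vehicle (-0.42, adjusted p = 0.0209), and CANX, which encodes calnexin, was the member called higher against VPA (0.23, adjusted p = 0.0497). Of all genes, 9.22% were called lower in the first of these comparisons and 3.01% higher in the second. With vehicle replicate 2 or any VPA library left out, CALR (adjusted p between 0.0716 and 0.133, edgeR) and ERAP1 (between 0.0977 and 0.136) were no longer called. PDIA3 was not called without vehicle replicate 2 or VPA replicate 1 or 2 (between 0.0782 and 0.114), nor TAPBPL without vehicle replicate 3 or VPA replicate 1 or 2 (between 0.0733 and 0.117). Against vehicle, the ERAP1 call with VPA+Rapamycin was lost without vehicle replicate 2 or any VPA+Rapamycin library (between 0.0560 and 0.113), and the CANX call was lost when any library other than VPA+Rapamycin replicate 2 was left out (between 0.0828 and 0.182).

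Of 12 regulators of class I transcription, all tested, 3 fell with VPA and 9 were not called, beside 15.7% of all genes called lower. RFX5, a DNA-binding subunit of the X-box factor, changed by -0.48 on the log2 scale (adjusted p = 0.00767, edgeR). The NF-κB subunits NFKB1 and RELA had log2 fold changes of -0.56 (adjusted p = 0.0448) and -0.42 (adjusted p = 0.0318). IRF1, an interferon-inducible activator of class I, had few reads (10 to 34 in vehicle and 22 to 52 with VPA) and was not called. None of the 12 was called in VPA+Rapamycin against VPA, and against vehicle RFX5 (-0.65) and NFKB1 (-0.63) were lower, beside 9.22% of all genes. Among 8 interferon receptor and signalling genes tested, JAK1 was higher with VPA (0.34, adjusted p = 0.0435) and IFNGR2 lower (-0.53, adjusted p = 0.00661). The other 6 were not called, and of all genes 16.4% were called higher and 15.7% lower. JAK1 and IFNGR2 were also called in VPA+Rapamycin against vehicle, at 0.46 and -0.46, beside 9.81% of all genes called higher and 9.22% lower. Of the 11 genes listed, these 8 were present in the tables, and the ligand genes IFNB1, IFNG and IFNL1 were not. Most of these calls were lost when a single library was left out. With VPA this held for RELA and JAK1 when any library other than vehicle replicate 3 was left out (adjusted p up to 0.158 and 0.169, edgeR), and for NFKB1 without vehicle replicate 2 or VPA replicate 1 or 3 (up to 0.182). RFX5 was lost without VPA replicate 1 (0.0539) and IFNGR2 without VPA replicate 2 (0.0507). Against vehicle, the VPA+Rapamycin calls of JAK1 and IFNGR2 were lost without vehicle replicate 2 or any VPA+Rapamycin library (up to 0.0895 and 0.0847), and that of NFKB1 without vehicle replicate 2 or VPA+Rapamycin replicate 2 or 3 (up to 0.139).

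Interferon-stimulated genes were called both with VPA and after the addition of Rapamycin. Of 10 tested with VPA, 5 rose (IFIT1, OAS1, IFI6, BST2 and IFI16) and STAT2 fell, beside 16.4% of all genes called higher and 15.7% lower, with a median log2 fold change of 0.60. OAS1 had under 10 counts in some library, so its part in this count leans on low counts. Of 9 tested in VPA+Rapamycin against VPA, 4 fell (ISG15, IFIT1, MX1 and BST2), beside 3.73% of all genes, with a median of -0.68. MX1 had under 10 counts in some library, so its part in the count that fell leans on low counts. BST2, the membrane protein tetherin, had 110, 54 and 34 reads in vehicle, 368, 254 and 270 with VPA, and 153, 90 and 129 with VPA+Rapamycin. Its VPA libraries lay above all others. Its log2 fold changes were 2.11 ± 0.33 (adjusted p = 0.00084, edgeR) for VPA against vehicle and -1.24 ± 0.19 (adjusted p = 0.000791) for VPA+Rapamycin against VPA. Against vehicle, none of 9 was called higher with VPA+Rapamycin, and IFIT3 was called lower, beside 9.81% and 9.22% of all genes. IFIT3 too had under 10 counts in some library. Whether the class I genes and the interferon-stimulated genes responded differently to Rapamycin was not tested as a difference between the lists. With VPA, the calls of BST2 and IFI6 were kept whichever library was left out. Those of IFIT1 without VPA replicate 3 (adjusted p = 0.0558, edgeR), OAS1 without VPA replicate 1 or 3 (up to 0.0644), IFI16 without vehicle replicate 2 (0.0791) or VPA replicate 2 or 3, and STAT2 without vehicle replicate 2 or VPA replicate 1 or 2 (up to 0.0798) were lost. In VPA+Rapamycin against VPA, MX1 was lost when any library other than VPA replicate 3 was left out (up to 0.110), and in the fit of all 9 libraries BST2 (0.0877), ISG15 (0.105) and MX1 (0.105) were not called. IFIT3 was lost without vehicle replicate 1 or any VPA+Rapamycin library (up to 0.108).

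Of 9 other class I and class I-like genes tested with VPA, 5 were called higher and 1 lower (16.4% and 15.7% of all genes), with a median log2 fold change of 1.13. MICB, ULBP1, ULBP2 and ULBP3, stress-induced ligands of the natural killer receptor NKG2D, were among those called higher with VPA, by log2 fold changes between 1.13 and 2.01. PROCR, a class I-like receptor of protein C, was the fifth, and FCGRT, the heavy chain of the neonatal Fc receptor, fell by 0.70 on the log2 scale (adjusted p = 0.00243, edgeR). The other 3 genes tested were not called, 1 of them with an estimate below 0. PROCR and ULBP2 had under 10 counts in some library, so their part in the count called higher leans on low counts. ULBP1 and ULBP3 stayed called higher with VPA+Rapamycin against vehicle, and MICB was called lower than in VPA (-0.61, adjusted p = 0.0266). These were 2 of 9 and 1 of 11 genes tested, beside 9.81% and 3.73% of all genes. Leaving out vehicle replicate 1 or any VPA library ended the ULBP2 call (adjusted p between 0.0654 and 0.145, edgeR). The ULBP3 call with VPA+Rapamycin was lost without vehicle replicate 2 or any VPA+Rapamycin library (between 0.0690 and 0.0850), and that of MICB against VPA without VPA replicate 1 or 2 or VPA+Rapamycin replicate 3 (between 0.0742 and 0.160) and in the fit of all 9 libraries (0.208).

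Of 8 MHC class II genes tested with VPA, 3 were called higher, beside 16.4% of all genes, and none lower. CD74, the invariant chain, rose by 1.31 on the log2 scale (adjusted p = 0.00178, edgeR), HLA-DOA, a modulator of peptide exchange, 1.80 (adjusted p = 0.000337), and HLA-DRA 3.14 (adjusted p = 0.00218). HLA-DRA had 3, 4 and 1 reads in vehicle and 22, 21 and 35 with VPA, and it passed the filter through the latter. The class II co-activator CIITA had 7 to 22 reads in vehicle and 7 to 18 with VPA and was not called. CD74 and HLA-DOA were called lower in VPA+Rapamycin than in VPA, at -0.68 (adjusted p = 0.00930) and -0.88 (adjusted p = 0.00787), beside 3.73% of all genes. The CD74 call was lost without VPA replicate 1 (adjusted p = 0.0729, edgeR), and neither gene was called in the fit of all 9 libraries (0.154 and 0.0720).

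**Figure D4:**
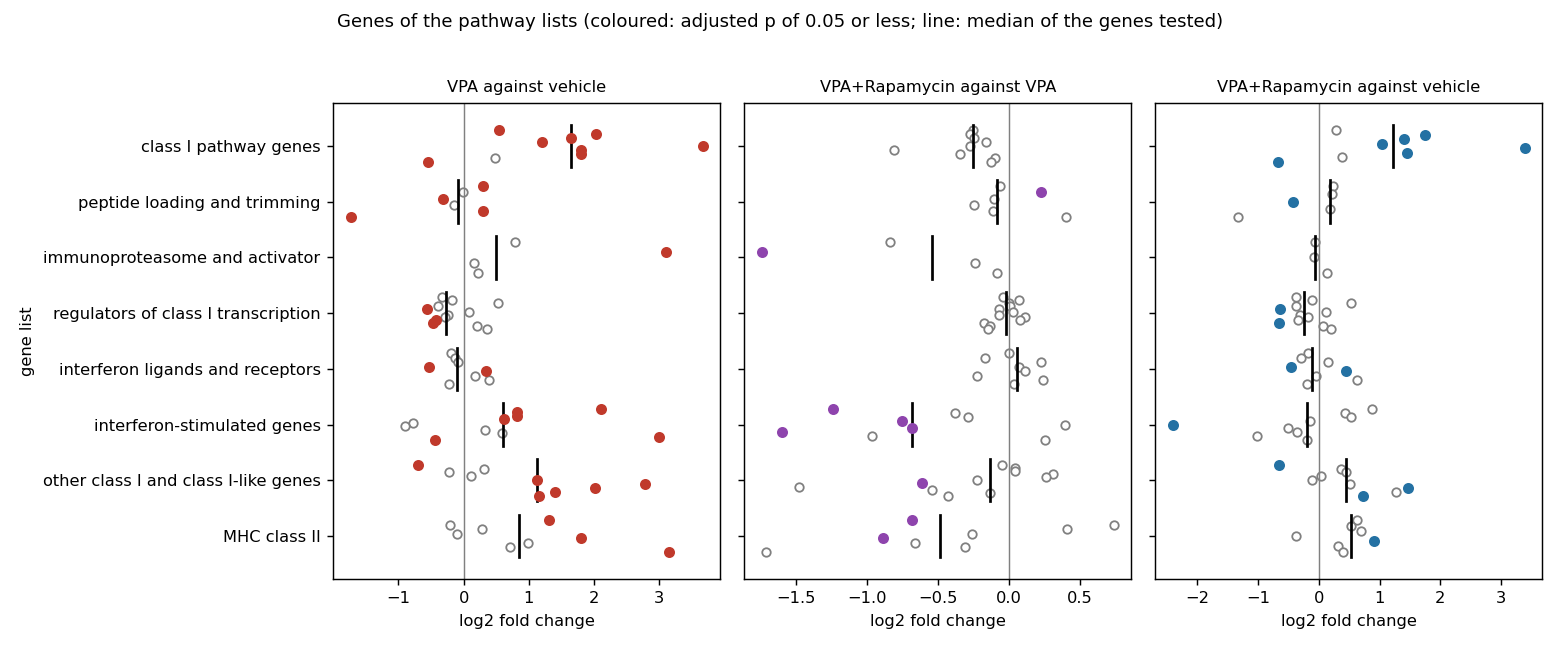
Log2 fold change (x axis, edgeR) of each tested gene of the class I pathway and of 7 related gene lists (y axis) in the 3 comparisons, with a scale for each panel; coloured points have an adjusted p of at most 0.05 and black lines mark the median of the genes tested. The median of the class I pathway genes is 1.64, -0.25 and 1.22 in the 3 panels, and that of the interferon-stimulated genes 0.60, -0.68 and -0.19.

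The summed RNA of mesenchymal markers was higher with VPA than in vehicle, though most single markers were not called. The 13 markers, all present, summed to between 181 and 355 CPM in vehicle, 639 and 792 CPM with VPA, and 310 and 430 CPM with VPA+Rapamycin, where they overlapped vehicle. Of 12 markers tested with VPA, 3 were called higher, beside 16.4% of all genes. These were COL1A1, COL1A2 and THY1 (log2 fold changes 1.11, 2.12 and 0.80). The other 9 were not called, 3 of them with estimates below 0. In VPA+Rapamycin against VPA, 6 of the 12 markers tested were called lower, beside 3.73% of all genes. Against vehicle, 10 were tested with VPA+Rapamycin, and THY1 was called higher and PDGFRA lower, beside 9.81% and 9.22% of all genes. COL1A1 was not called with VPA without vehicle replicate 2 (adjusted p = 0.0596, edgeR) or VPA replicate 1 (0.0536), and none of the 6 was called when the 9 libraries shared a single fit (adjusted p between 0.0799 and 0.540). The part of mesenchymal cells in the class I result was not tested. Neuronal markers summed to between 1246 and 2129 CPM in vehicle, 1041 and 1129 CPM with VPA, and 1122 and 1176 CPM with VPA+Rapamycin. With VPA, 6 of the 7 were called lower, beside 15.7% of all genes. The MAP2 call was lost without vehicle replicate 2 or any VPA library (adjusted p between 0.0534 and 0.0735, edgeR). That of TUBB3 was lost without vehicle replicate 2 or 3 or VPA replicate 1 or 3 (between 0.0508 and 0.155). Of 9 progenitor markers tested with VPA, HES5 was called higher (log2 fold change 0.95) and HOXC6 and HOXA5 lower (-1.54 and -1.24), beside 16.4% and 15.7% of all genes. The other 6 were not called.

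Of 6 neural crest markers tested with VPA, 3 were called lower and 1 higher, beside 15.7% and 16.4% of all genes, and 2 were not called. SOX10, the transcription factor that marks neural crest cells and the locus of the reporter, had 347, 248 and 230 reads in vehicle, 5, 10 and 9 with VPA, and 8, 37 and 63 with VPA+Rapamycin. Its log2 fold change was -5.15 ± 0.29 (adjusted p = 2.52e-06, edgeR) for VPA against vehicle, and all exposed libraries lay below vehicle. FOXD3 and TFAP2A were also called lower with VPA (-1.37 and -2.64), and the receptor gene ERBB3 was called higher (1.29). Without vehicle replicate 3 the TFAP2A estimate was -0.88 and was not called (adjusted p = 0.309, edgeR). Its call was also lost when any VPA library was left out and with DESeq2 (adjusted p = 0.0612). Of 6 tested in VPA+Rapamycin against VPA, SOX10 and FOXD3 were called higher, beside 3.01% of all genes. Neither was called in the fit of all 9 libraries (adjusted p = 0.106 and 0.0987, edgeR). The SOX10 call was also lost when any library other than VPA+Rapamycin replicate 1 was left out (up to 0.268). The sum of the 7 crest markers lay between 401 and 484 CPM in vehicle and between 397 and 421 CPM with VPA, with overlap. The part of neurons, progenitors and neural crest cells in the class I result was not tested.

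The genes whose profile over the 9 libraries lay closest to the mean profile of the 9 class I genes were COL6A2, TAGLN2, FAH, COMTD1 and ANXA11, out of 16726 genes compared. Their root mean square differences from it were between 0.0730 and 0.112 on the log2 scale. Among the 9 genes themselves, HLA-E (0.134) and HLA-C (0.167) lay closest to that mean and TAPBP (0.907) and HLA-F (1.21) farthest. COL6A2, TAGLN2, FAH, COMTD1 and ANXA11 were chosen by their values in these same libraries. Their fold changes and adjusted p therefore follow in part from that choice and are given as description only. COL6A2, a collagen VI chain, had log2 fold changes of 1.37, -0.15 and 1.22 for VPA against vehicle, VPA+Rapamycin against VPA and VPA+Rapamycin against vehicle. TAGLN2 and FAH fell in VPA+Rapamycin against VPA (-0.45, adjusted p = 0.00548, and -0.46, adjusted p = 0.0128, edgeR). Neither was called when the 9 libraries shared a single fit (adjusted p = 0.175 and 0.191, edgeR), and FAH was not called without VPA replicate 2 (0.0504) or VPA+Rapamycin replicate 3 (0.0647). COL6A2 was called lower in this comparison without VPA+Rapamycin replicate 2 (-0.26, adjusted p = 0.0325).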

How the data were processed

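Poly-A RNA was sequenced by the authors after random-hexamer priming. HISAT2 2.0.5 and featureCounts 1.5.0-p3 are named in the submitters' processing notes, and the use of strand is not given in the sources used here. The authors deposited a table for each pair of conditions with raw read counts per gene, used here. Columns of scaled counts (signal), FPKM, log2 fold changes and p-values, which the authors deposited beside them, were not used. Gene coordinates of the vehicle and VPA table were those of GENCODE 29 (GRCh38) for 30034 of 30034 genes. Comparisons were run within each table with edgeR 4.0.16 (R 4.3.3): TMM, filterByExpr, quasi-likelihood F test and Benjamini-Hochberg adjustment over all genes tested, with calls at 0.05. DESeq2 1.42.0 and other alternatives were also run. The test was also run on simulated counts that had the same dispersion for every gene, which does not measure its error rate in these libraries. Levels are TMM-scaled CPM over the 26871 genes in all 3 tables, and per kilobase by the tables' gene length. Shares and ratios were compared with exact permutation tests. The 9 genes, the lists and the 5 genes of closest profile follow rules that were written with earlier results of these data known. The lists' genes named are those called in any comparison or defining for their list. Of these lists, 2 genes are not reported here.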

Additional observations from a re-analysis of the deposited data

How the results depend on the processing

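DESeq2, upper-quartile scaling, no filter or a stricter filter on low counts, a fit of all 9 libraries and the omission of each library kept the direction of every member except TAP2 in VPA+Rapamycin against VPA, which turned to 0.0164 without VPA replicate 3 and to 0.00199 without VPA+Rapamycin replicate 1. Genes called higher against vehicle numbered 7 with VPA and 5 with VPA+Rapamycin under DESeq2 too, and HLA-F and NLRC5 could not be fitted against vehicle under the stricter filter. Single genes, list counts, levels and shares were tallied together. Of these, 2241 values kept their call, stayed within 1.5 times (list counts) or stayed within the SD of their 3 libraries (levels and shares). A further 154 moved past these limits, 192 lost and 6 gained a call. Levels and shares with a library left out cannot move past that SD, so those entries of the tally were fixed in advance. Of the 20 list genes called in VPA+Rapamycin against VPA, 8 kept their call whichever library was left out and 2 in the fit of all 9 libraries; of the 41 called with VPA and the 20 called with VPA+Rapamycin against vehicle, 23 and 6 kept it whichever library was left out. With VPA, ERAP1 lost its call under upper-quartile scaling (adjusted p = 0.0521, edgeR) and without a filter (0.0848), and NFKB1 under upper-quartile scaling (0.0559). Leaving out a library moved the genes called lower between 0 and 1 in each of the 3 comparisons. Without a filter on low counts 2 genes, HLA-B and B2M, were called lower in VPA+Rapamycin against VPA. There the heavy chain sum ranged from -0.30 to -0.18 over the alternatives and was called with DESeq2 (-0.23), without a filter (-0.24) and without VPA+Rapamycin replicate 2 (-0.30). Of 9 correlations between the deviations of same-numbered libraries, 1 exceeded 0.1, and 5 of 9 libraries correlated best with their own number. With 3 libraries in a condition, these correlations cannot decide whether same-numbered libraries pair. In a fit with the replicate block, the members called were again 7 higher and 1 lower with VPA, 0 in VPA+Rapamycin against VPA, and 5 higher and 1 lower in VPA+Rapamycin against vehicle. The block ended the calls of PDIA3 (adjusted p = 0.0654, edgeR), CALR (0.0715), ERAP1 (0.0987) and JAK1 (0.0922) with VPA and of CANX in VPA+Rapamycin against VPA (0.106). HLA-F and NLRC5 are limited by their few reads in vehicle.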
